A study of Saccharomyces cerevisiae with 4 samples.

Results

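Translation elongation factors and the ribosome-associated protein Tma19 were followed in RNA crosslinked to Mip6, an RNA-binding protein of the yeast Saccharomyces cerevisiae. The set holds 10 genes of the 7126 features counted, taken by gene name: TEF1, TEF2, EFB1, TEF4, CAM1, EFT1, EFT2, YEF3, HYP2 and TMA19. All 10 names matched a feature, and 9 of them had counted reads. The strain carried Mip6 with an HTB tag, which lets the protein be purified on nickel and streptavidin beads, and the same strain was used in every sample. The 39 °C cells had 20 min at 39 °C, with 4-thiouracil for 25 min at 30 °C and for the 20 min of heat. The 30 °C cells stayed at 30 °C with 4-thiouracil for 45 min. Both were irradiated at 365 nm for 15 min, so that RNA that had taken up 4-thiouracil was crosslinked to protein, the method known as PAR-CLIP.

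During elongation, eEF1A brings aminoacyl-tRNA to the ribosome as a complex with GTP, and the eEF1B complex exchanges its GDP for GTP afterwards. The eEF2 protein moves the ribosome along the mRNA, and the ATPase eEF3, an essential factor of fungi, helps to release the spent tRNA. eIF5A was named as an initiation factor but promotes peptide bond formation at difficult sequences such as proline runs, and carries the modified residue hypusine. Tma19 is the yeast homologue of the mammalian protein TCTP and associates with ribosomes. Growing yeast makes much of these mRNAs, and on heat shock it is known to lower the transcription of ribosomal protein genes.

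There was 1 library per temperature, which the labels divide into 1 sample for each strand. No test between temperatures was therefore possible, and differences carry intervals for counting error only. The 39 °C library held 6950540 reads in features and the 30 °C library 11657228. Levels below are reads from the sample of a gene's own strand, scaled to 1000000 reads in features of the library (own-strand CPM). Reads in features named for the plus strand came to 88.5% from the plus-strand sample at 39 °C and to 91.5% at 30 °C. The corresponding shares of the minus-strand sample, for features named for the minus strand, were 88.7% at 39 °C and 91.3% at 30 °C. Of 8 heat shock marker genes, 7 were at least 2-fold higher at 39 °C, with a median log2 ratio of 1.61. Of 6162 features with at least 20 own-strand reads, 4.4% were. The markers were chosen with earlier results of these data known, so they are no independent check of the temperature labels. BTN2, which codes for a sorter of misfolded proteins, with 3.62 and the Hsp70 gene SSA3 with 2.79 were the highest, and SSA4, another Hsp70 gene, with 1.36 and the disaggregase gene HSP104 with 0.99 the lowest. With no input RNA among the samples, a lower mRNA level and less crosslinking per mRNA cannot be told apart.

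Per kilobase of feature, TMA19 stood first among the 9 genes and EFT1 and EFT2 stood last or next to last at both temperatures. TMA19 had 2857 own-strand CPM per kilobase at 39 °C and 3784 at 30 °C, rank 9 at 39 °C and rank 5 at 30 °C of 6685 features with a strand in their name. TEF1 with 1013 and TEF2 with 1021 followed at 39 °C. At 30 °C TEF1 had 1026 and TEF2 had 1003 CPM per kilobase. The counting intervals of these 2 genes overlapped in each library, so their order is not resolved. EFB1 came next with 698.3 CPM per kilobase at 39 °C and 791.5 at 30 °C, then YEF3 with 352.8 at 39 °C and 515.5 at 30 °C.

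The remaining genes were closer to the median feature, which had 66.0 CPM per kilobase at 39 °C and 65.8 at 30 °C. CAM1 had 123.2 CPM per kilobase at 39 °C and 195.6 at 30 °C, and TEF4 had 110.7 at 39 °C and 215.9 at 30 °C. On these lengths CAM1 stood above TEF4 at 39 °C and below it at 30 °C. The counting intervals of these 2 genes overlapped at 39 °C, 116.0 to 130.9 for CAM1 and 103.7 to 117.9 for TEF4, and did not at 30 °C. EFT2 with 84.0 and EFT1 with 82.0 CPM per kilobase at 39 °C were not resolved from each other, and neither were EFT1 with 129.5 and EFT2 with 124.6 at 30 °C. Lengths here are those of the authors' deposited table. If the whole gene span of the annotation with its intron is used, EFB1 has 439.3 CPM per kilobase at 39 °C and 498.0 at 30 °C, 1.5-fold or more below the values above. On that length it stays above YEF3 at 39 °C and falls just below YEF3 at 30 °C. TEF4, which also has an intron, then has 87.6 CPM per kilobase at 39 °C and 170.9 at 30 °C, which puts it below CAM1 at both temperatures.

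**Figure D1:**
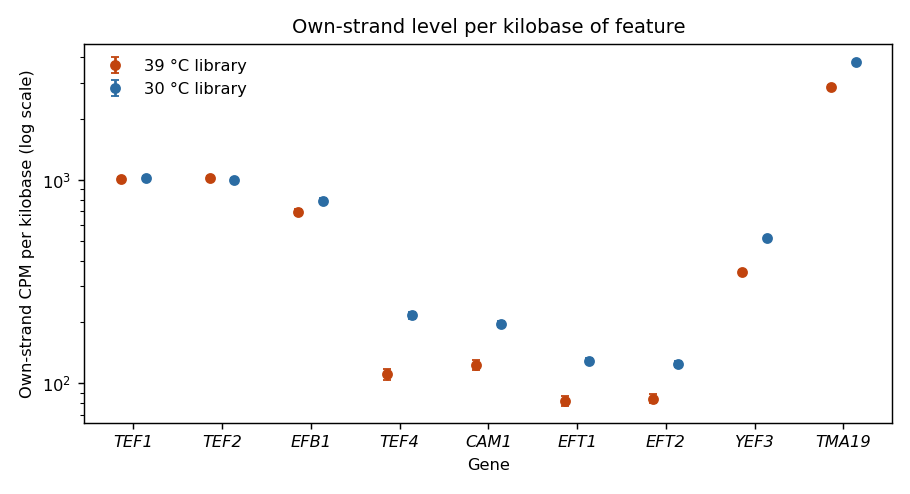
Own-strand CPM per kilobase (log scale) of the 9 genes with counted reads, with 95% Clopper-Pearson counting intervals, which are smaller than most symbols. The 39 °C library (orange) is left of the 30 °C library (blue). TEF1 and TEF2 lie together at both temperatures. The points of EFB1, TEF4, CAM1, EFT1, EFT2, YEF3 and TMA19 are lower at 39 °C, with the smallest gap on the log scale for EFB1.

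Both genes of eEF1A had nearly the same level at both temperatures. TEF1 (YPR080W, chromosome XVI, 700594 to 701970, build R64, plus strand) had 1395.0 own-strand CPM at 39 °C from 9696 reads and 1413.0 CPM at 30 °C from 16472 reads. TEF2 (YBR118W, chromosome II, 477671 to 479047, plus strand) had 1405.9 CPM at 39 °C from 9772 reads and 1381.6 CPM at 30 °C from 16105 reads. These are near-equal values in all 4 cases, and the log2 ratios of 39 °C over 30 °C were -0.02 for TEF1 (95% interval -0.05 to 0.02) and 0.03 for TEF2 (-0.01 to 0.06). Both intervals include 0, and the sign of each ratio depends on the scaling used.

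The coding sequences of TEF1 and TEF2 are nearly identical, so reads from one can be assigned to the other, and the sources used here do not say how reads with several positions were treated. TEF1 held 49.8% of the reads of the pair at 39 °C, with a 95% Clopper-Pearson interval of 49.1 to 50.5, and 50.6% at 30 °C (50.02 to 51.1). The pair is therefore better read as 1 quantity. Its summed own-strand CPM were 2801 at 39 °C and 2795 at 30 °C, and the log2 ratio was 0.00 (-0.02 to 0.03).

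The subunits of eEF1B, the exchange factor of eEF1A, did not share 1 ratio. EFB1 codes for the alpha subunit, which carries the exchange activity (YAL003W, chromosome I, 142174 to 143160, plus strand). It had 433.6 own-strand CPM at 39 °C from 3014 reads and 491.5 CPM at 30 °C from 5730 reads, a log2 ratio of -0.18 (-0.24 to -0.12). TEF4 and CAM1 code for alternative forms of the gamma subunit, which lacks exchange activity. TEF4 (YKL081W, chromosome XI, 282891 to 284455, plus strand) had 137.1 CPM at 39 °C from 953 reads and 267.5 CPM at 30 °C from 3118 reads. Its log2 ratio of -0.96 (-1.07 to -0.86) was the lowest of the set, just short of 2-fold, and reached -1.02 if ambiguous and no-feature reads are added to the totals. CAM1 (YPL048W, chromosome XVI, 464401 to 465648, plus strand) had 153.8 CPM at 39 °C from 1069 reads and 244.1 CPM at 30 °C from 2845 reads, a log2 ratio of -0.67 (-0.77 to -0.56).

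Both gamma subunit genes were thus lower at 39 °C by more than the alpha subunit gene. The log2 ratio of TEF4 lay below that of EFB1 by a difference of -0.78 (-0.91 to -0.66), and that of CAM1 by -0.49 (-0.61 to -0.37). Intervals of such differences are normal approximations on the log scale from the 4 counts and cover counting error only. TEF4 also lay below CAM1, by -0.30 (-0.44 to -0.15), and its share of the reads of these 2 genes was 47.1% at 39 °C (44.9 to 49.3) and 52.3% at 30 °C (51.0 to 53.6). Per kilobase of the deposited lengths, EFB1 had 2.985 times the summed level of TEF4 and CAM1 at 39 °C and 1.924 times at 30 °C. On the whole gene spans both multiples are smaller, since the level of EFB1 then falls by the largest factor of these genes. Against the summed eEF1A genes the log2 ratio differed by -0.18 for EFB1 (-0.25 to -0.12), by -0.97 for TEF4 (-1.08 to -0.86) and by -0.67 for CAM1 (-0.77 to -0.56).

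EFB1 and TEF4 each have an intron that holds a small nucleolar RNA, which guides chemical modification of ribosomal RNA. SNR18 lies within EFB1 (chromosome I, 142367 to 142468) and SNR38 within TEF4 (chromosome XI, 283185 to 283279), both on the plus strand like their hosts. The plus-strand CPM of SNR18 were 150.2 at 39 °C and 201.0 at 30 °C, and its log2 ratio was -0.42 (-0.53 to -0.31), beside -0.18 for EFB1. Those of SNR38 were 66.5 at 39 °C and 130.7 at 30 °C, and its log2 ratio was -0.97 (-1.13 to -0.82), beside -0.96 for TEF4. The interval of SNR18 lay wholly below that of EFB1, and the interval of SNR38 overlapped that of TEF4. Of the 10 genes, EFB1 and TEF4 were the ones that overlapped another RefSeq gene.

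The eEF2 genes were lower at 39 °C by similar amounts. EFT1 (YOR133W, chromosome XV, 575098 to 577626, plus strand) had 207.3 own-strand CPM at 39 °C from 1441 reads and 327.5 CPM at 30 °C from 3818 reads, a log2 ratio of -0.66 (-0.75 to -0.57). EFT2 (YDR385W, chromosome IV, 1243230 to 1245758, plus strand) had 212.5 CPM at 39 °C from 1477 reads and 315.2 CPM at 30 °C from 3674 reads, a log2 ratio of -0.57 (-0.66 to -0.48). These genes code for the same protein and are near-identical, so their reads cannot be assigned with certainty either. This pair too is better read as 1 quantity, and the likeness of its 2 genes is no finding about each of them. EFT1 held 49.4% of the reads of the pair at 39 °C (47.6 to 51.2) and 51.0% at 30 °C (49.8 to 52.1), and the ratios of the 2 genes differed by -0.09 (-0.21 to 0.03), an interval that includes 0. The summed own-strand CPM of the pair were 419.8 at 39 °C and 642.7 at 30 °C, and the log2 ratio was -0.61 (-0.68 to -0.55). The summed eEF2 ratio lay below the summed eEF1A ratio by a difference of -0.62 (-0.68 to -0.55).

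YEF3, which codes for eEF3 (YLR249W, chromosome XII, 636780 to 639914, plus strand), is the longest gene of the set at 3135 bases. It had 1106.1 own-strand CPM at 39 °C from 7688 reads and 1616.2 CPM at 30 °C from 18840 reads, a log2 ratio of -0.55 (-0.59 to -0.51). Its ratio differed from that of the summed eEF2 genes by 0.07 (-0.01 to 0.14), an interval that includes 0, and from that of the summed eEF1A genes by -0.55 (-0.60 to -0.50). HEF3, a second eEF3 gene that is little expressed in growing cells, had 69.3 CPM at 39 °C from 482 reads and 46.7 CPM at 30 °C from 544 reads, and its log2 ratio was 0.57 (0.39 to 0.75). The 2 genes thus lay on opposite sides of 0, with a difference of -1.12 for YEF3 against HEF3 (-1.30 to -0.94). YEF3 held 94.1% of the reads of these 2 genes at 39 °C (93.6 to 94.6) and 97.2% at 30 °C (97.0 to 97.4). Of the reads of HEF3, 12.7% at 39 °C and 11.4% at 30 °C were on the other strand.

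HYP2, the main gene for eIF5A (YEL034W, chromosome V, 85676 to 86149, plus strand), is listed with 0 reads in all 4 samples. A count of 0 allows up to 0.432 CPM at 39 °C and 0.257 CPM at 30 °C, but only for reads that could be counted for the gene. The count files also hold YEL034C-A, a feature of 603 bases named for the minus strand at the same systematic number, for which the annotation used here has no entry. That feature had 477 plus-strand and 38 minus-strand reads at 39 °C, and 878 plus-strand and 32 minus-strand reads at 30 °C. Its reads were thus mostly on the strand of HYP2, 92.6% at 39 °C and 96.5% at 30 °C, and the plus-strand reads had a log2 ratio of -0.13 (-0.30 to 0.03). HTSeq can set a read that overlaps several features aside as ambiguous, and such reads made up 4.51% of the 39 °C plus-strand sample and 3.92% of the 30 °C plus-strand sample. Whether the reads of HYP2 are among them was not tested.

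In the authors' deposited table HYP2 does have a log2 ratio, which is -0.27 for 39 °C over 30 °C after its sign is turned. The 0 in the count files thus does not show that HYP2 mRNA was unread. For YEL034C-A the authors' ratio with its sign turned was 1.56, at a probability (the authors' score) of 0.496. The -0.13 above is from plus-strand reads, which lie opposite to the strand in its name. Its few own-strand reads, 38 at 39 °C and 32 at 30 °C, were more numerous in the smaller 39 °C library, the same direction as the authors' ratio. ANB1, the gene for the other form of eIF5A, which is used when oxygen is low, had 6.76 own-strand CPM at 39 °C from 47 reads and 14.4 CPM at 30 °C from 168 reads. Its log2 ratio was -1.08 (-1.59 to -0.62), and 52.0% of its reads at 39 °C and 27.6% at 30 °C were on the other strand. With both strands summed its log2 ratio was -0.49, short of 2-fold.

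TMA19 (YKL056C, chromosome XI, 334412 to 334915) was the gene of the set on the minus strand and had the most reads. It had 1439.9 own-strand CPM at 39 °C from 10008 reads and 1906.9 CPM at 30 °C from 22229 reads, a log2 ratio of -0.41 (-0.44 to -0.37). That ratio lay below the summed eEF1A ratio by a difference of -0.41 (-0.45 to -0.37).

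Taken as a set, the genes were lower at 39 °C without passing 2-fold. Of the 9 genes, 0 were at least 2-fold lower and 0 at least 2-fold higher, where 2.69% of 6162 tested features were 2-fold lower and 4.4% were 2-fold higher. At a smaller threshold, 6 of 9 were at least 20% lower and 0 of 9 at least 25% higher, against 25.8% and 22.5% of all tested features. TEF1 and TEF2 can share reads, as can EFT1 and EFT2, so the 9 genes are not 9 separate measures. The 6 were TEF4, CAM1, EFT1, EFT2, YEF3 and TMA19. Their log2 ratios lay below the first quartile of all tested features, which was -0.33, with TEF4 at a point that 3.1% of features lay below and TMA19 at one that 20.4% lay below. EFB1, TEF1 and TEF2 lay inside the quartiles. The median log2 ratio of the 9 genes was -0.55 and that of all tested features -0.03.

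**Figure D2:**
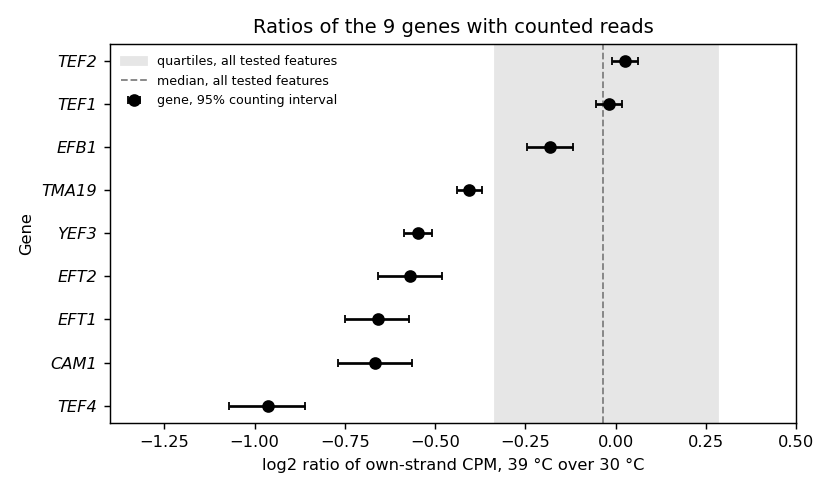
Log2 ratio of own-strand CPM, 39 °C over 30 °C, for each of the 9 genes with counted reads (points) with exact 95% counting intervals (bars). The grey band spans the quartiles of the 6162 tested features, -0.33 to 0.28, and the dashed line is their median of -0.03; 6 genes lie left of the band, from TMA19 at -0.41 to TEF4 at -0.96.

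As a share of all reads in features, the set had 0.649% at 39 °C (0.643 to 0.655) and 0.796% at 30 °C (0.791 to 0.801), a pooled log2 ratio of -0.29 (-0.31 to -0.28). The pooled value is nearer to 0 than the median, and TEF1 and TEF2 held 19468 of the 45118 reads of the set at 39 °C and 32577 of 92831 at 30 °C. The genes with the highest levels per kilobase, TMA19, TEF1, TEF2 and EFB1, were those with the 4 ratios nearest to 0 or above it. Across the 9 genes the Spearman correlation of the mean log level per kilobase with the ratio was 0.733, where across 6162 tested features it was -0.341. These are descriptions, since level and ratio come from the same 2 libraries and the near-identical pairs share reads.

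**Figure D3:**
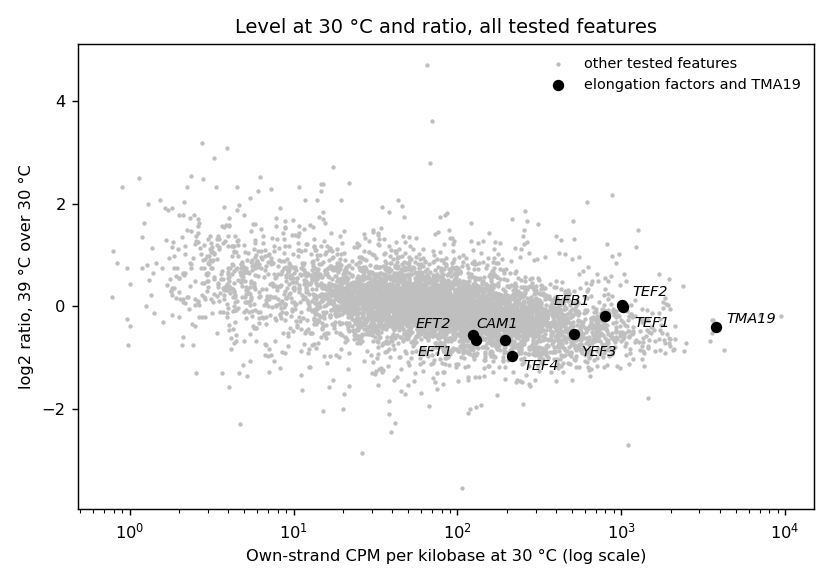
Own-strand CPM per kilobase at 30 °C (log scale) against the log2 ratio of 39 °C over 30 °C for the tested features with reads at 30 °C (grey) and for the 9 genes (black). TMA19 stands far right at 3784 CPM per kilobase with a ratio of -0.41, TEF1 and TEF2 lie near 0 at about 1000, and TEF4 is the lowest of the set.

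Few reads of these genes lay on the opposite strand. The other-strand share ran from 4.18% for TEF2 to 7.04% for CAM1 at 39 °C, with a median of 4.86%, and from 2.60% for EFT2 to 4.07% for TMA19 at 30 °C, with a median of 3.35%. It was higher at 39 °C in 9 of 9 genes, and in 5 of these the intervals of the 2 libraries did not overlap. The share was also higher at 39 °C in 80% of 6162 tested features, with intervals that did not overlap in 27.9%. Among the 2096 features with at least 1000 own-strand reads in both libraries these were 90.3% and 33.5%, so a higher share at 39 °C was common across features and is not a result about these genes. For CAM1 it was 7.04% at 39 °C (5.63 to 8.68) and 3.66% at 30 °C (3.01 to 4.399). The median share was 5.38% over the 2113 features with at least 1000 own-strand reads at 39 °C and 4.38% over the 3575 such features at 30 °C.

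**Figure D4:**
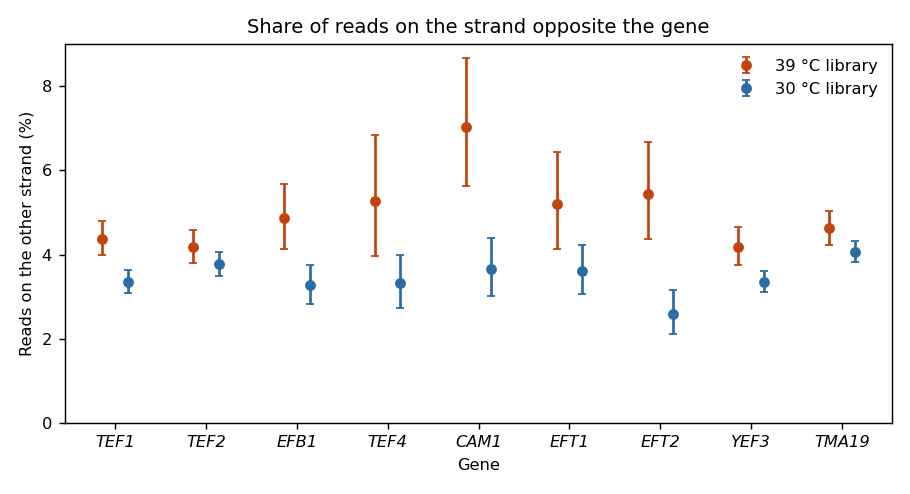
Share of reads (percent) in the sample of the strand opposite the gene, for the 9 genes, with 95% Clopper-Pearson counting intervals. The 39 °C library (orange, left) lies above the 30 °C library (blue, right) for each gene, with the widest gap for CAM1, 7.04% at 39 °C and 3.66% at 30 °C.

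The authors' deposited table, whose log2 ratio is positive where a feature is higher at 30 °C, was read with its sign turned. It gave TEF4 -0.93, EFT1 -0.62, CAM1 -0.60, EFT2 -0.51, YEF3 -0.51 and TMA19 -0.37. For EFB1 the authors' deposited table had -0.12, for TEF1 0.03 and for TEF2 0.06. With a probability above 0.9, TEF4 was called lower at 39 °C at 0.925, as were 5.12% of 6918 features with a ratio in the authors' deposited table. The next in the set were YEF3 and CAM1, both at a probability of 0.883 in the authors' deposited table. SNR38, in the intron of TEF4, had a ratio of -0.82 and a probability of 0.919 in the authors' deposited table. That probability is the authors' own score and not a p-value.

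Other genes of the pathway came from lists chosen with earlier results of these data known. Beside the list counts below, 4.4% of all 6162 tested features were at least 2-fold higher and 2.69% at least 2-fold lower. Genes for the maturation and modification of elongation factors had a median log2 ratio of -0.12 over 17 genes, with 1 at least 2-fold higher and 0 at least 2-fold lower. The higher one was ZPR1, a chaperone that helps eEF1A to fold, with 305.3 CPM at 39 °C from 2122 reads and 111.1 CPM at 30 °C from 1295 reads, and a log2 ratio of 1.46 (1.36 to 1.56). EFM6, a lysine methyltransferase of eEF1A, had 0.49 (0.40 to 0.58). At the other end were DYS1, the enzyme of the first step to hypusine on eIF5A, with -0.51 (-0.66 to -0.37), and EFM5, another eEF1A methyltransferase, with -0.49 (-0.63 to -0.35), which was -0.25 with both strands summed.

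Termination, recycling and ribosome-bound factors had a median of -0.22 over 10 genes, with 1 at least 2-fold lower and 0 higher. The lower one was STM1, which codes for a protein that protects idle ribosomes, with 124.9 CPM at 39 °C from 868 reads and 266.7 CPM at 30 °C from 3109 reads, and a log2 ratio of -1.09 (-1.20 to -0.99). SUP45, the release factor that recognises stop codons, had -0.36 (-0.42 to -0.30). NEW1 with 0.22 and ARB1 with 0.39, both of the ABC protein family like eEF3, were the highest. Of the mitochondrial elongation factors, TUF1, the mitochondrial counterpart of eEF1A, had -0.35 (-0.41 to -0.29). GUF1, a homologue of the bacterial factor LepA, had 0.15, MEF1, which moves the mitochondrial ribosome, 0.23 and MEF2, which acts in its recycling, 0.62, and 0 of these 4 genes passed 2-fold.

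The lists nearest to the set in their role in protein synthesis had medians on both sides of its value of -0.55. The 137 cytosolic ribosomal protein genes had a median log2 ratio of -0.70 and ran from -1.47 to -0.01, with 15 at least 2-fold lower, 0 higher and 125 at least 20% lower. Of all 6162 tested features, 2.69% were at least 2-fold lower and 25.8% at least 20% lower. The 18 cytosolic aminoacyl-tRNA synthetase genes had a median of -0.51, with 0 past 2-fold and 14 at least 20% lower. With ambiguous and no-feature reads added to the totals, 23 ribosomal protein genes and 2 synthetase genes were at least 2-fold lower. With the CPM totals used above, the synthetase gene GUS1, which charges the tRNA for glutamate, had -0.99 and DED81, for asparagine, -0.99. At the other end of the synthetase list ALA1, for alanine, had -0.16 and MES1, for methionine, 0.20. The 28 initiation factor genes had a median of -0.36, with 0 past 2-fold and 15 at least 20% lower. SUI3, a subunit of eIF2, had -0.92 and TIF11, which codes for eIF1A, had -0.84. EAP1 had 0.17 and DED1, an RNA helicase of scanning, 0.87. None of these lists was tested against the elongation factors.

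**Figure D5:**
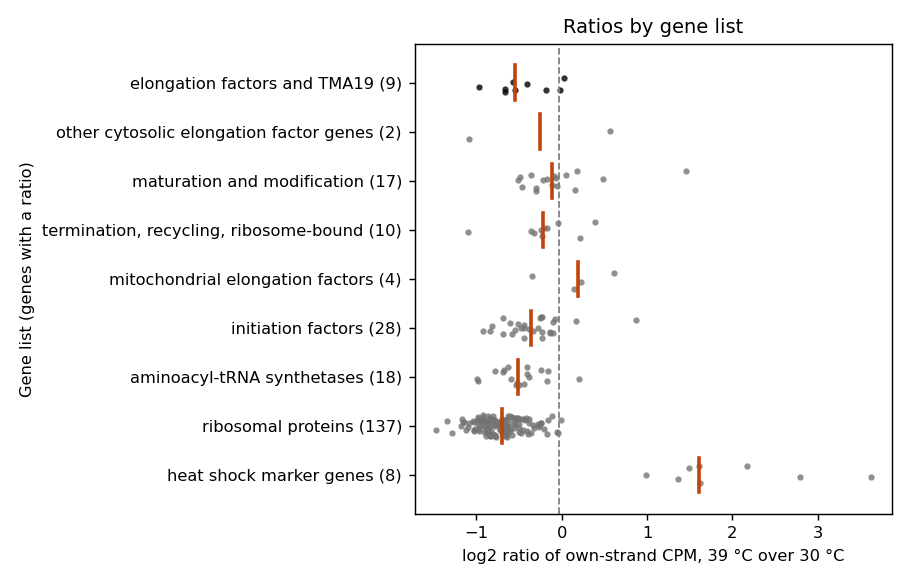
Log2 ratio of own-strand CPM, 39 °C over 30 °C, of each gene (points) by gene list, with the number of genes with a ratio in brackets; red bars are list medians and the dashed line is the median of all tested features, -0.03. The elongation factor set, with a median of -0.55, lies between the initiation factors at -0.36 and the ribosomal proteins at -0.70, and the heat shock marker genes lie at 0.99 or above.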

How the data were processed

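The authors deposited whole-number read counts per feature for each strand sample, not normalized, with 5 HTSeq summary rows that were left out here. Bowtie 1.1.1, HTSeq and the builds sacCer3 and R64 are named, per the submitters' processing notes. The sources used here do not give how reads with several positions were treated, the strand setting of the counting, any duplicate removal or the annotation. Of the authors' deposited table, the log2 ratio, the probability (a score) and the feature length were used. Its direction was set against the counts: with the sign turned, its Pearson correlation to own-strand ratios was 0.95 across 6162 features. Another 2 columns of values per library have names that match no label and were not used.

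A gene's own strand was read from its systematic name. CPM were taken over all reads in features of a library, and 0.5 was added to each count in ratios. Ratios were computed for 6162 features with at least 20 own-strand reads, of 6685 with a strand in the name, and a change means at least 2-fold. Intervals are exact conditional binomial for ratios and Clopper-Pearson for shares, at 95%. They treat reads as independent, which PCR copies are not. The floor is 3 counts. Members and lists were chosen with earlier results of these data known. The named genes are all members, all genes of lists of up to 4 genes, and otherwise the 2 highest and 2 lowest of each list among genes with at least 50 reads; others were named after their values were seen. All 10 members matched RefSeq assembly R64 by locus tag, which gave names and coordinates. Calculations used Python 3.11.15 and SciPy 1.17.1, and were tested on simulated data. TMM factors came from edgeR 4.0.16 and size factors from DESeq2 1.42.0, as scaling alternatives only, since 1 library per temperature allows no count test.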

Additional observations from a re-analysis of the deposited data

How the results depend on the processing

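The median log2 ratio of the set, -0.55, was -0.53 with both strands summed, -0.53 with the total of each gene's strand sample, -0.51 with TMM factors, -0.51 with DESeq2 size factors, -0.51 without 2-fold features in the total, -0.60 with ambiguous and no-feature reads in the total, and -0.44 from the authors' deposited ratios, which include HYP2. The pooled log2 ratio, -0.29, was -0.26 with TMM factors, -0.26 with DESeq2 size factors, -0.26 without 2-fold features and -0.35 with ambiguous and no-feature reads. The total with ambiguous and no-feature reads also made 1 gene, TEF4, at least 2-fold lower, where the count was otherwise 0. Over 11 settings TEF1 ran from -0.07 to 0.03 and was negative in 7, and TEF2 ran from -0.03 to 0.06 and was negative in 1. The other 7 genes were negative in all 11. The minimums of 1 and 100 reads are among the 11 and cannot change the ratio of genes with more reads, so they add nothing to these counts. Adding 5 to each count and summing the near-identical pairs left the median at -0.55. Minimums of 1 or 100 reads could not change it, since each gene with a ratio had more reads than that. The median of the paralogs ANB1 and HEF3, -0.25, turned to 0.05 with both strands summed, and the medians of the other 7 lists kept their sign there. A minimum of 100 reads could not change the list medians, since every list gene with a ratio had more reads. With both strands summed EFM3 turned to 0.61, against -0.30 on its own strand, and DPH5 to 0.19, against -0.05. After the data were seen, the 2-fold counts of the lists were also taken with the other totals. The total of each gene's strand sample made 1 synthetase gene 2-fold lower, and the heat shock marker genes past 2-fold were 7 or 8 in every setting. With 1 library per temperature, no replicate could be left out, and the difference between cultures is unknown.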

Other observations

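Some related genes had many reads on the strand opposite the gene. They were named after their values were seen. EFM3, a methyltransferase that modifies eEF2, had 81.4% of its reads there at 39 °C and 65.0% at 30 °C. DPH5, an enzyme of diphthamide synthesis on eEF2, had 41.2% at 39 °C and 30.2% at 30 °C. EFM5 had 33.2% at 39 °C and 21.5% at 30 °C. TIF34, a subunit of eIF3, had 22.9% at 39 °C and 8.08% at 30 °C. The share was higher at 39 °C in each of these genes, as it was in 80% of 6162 tested features.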
